A study of Mus musculus with 28 samples.

Results

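Sprouty and Spred proteins are inhibitors of the Ras-ERK pathway, and their 7 mouse genes, Spry1, Spry2, Spry3, Spry4, Spred1, Spred2 and Spred3, were followed here across silenced and stimulated forebrain cultures. They were taken by gene name from the authors' tables, where all 7 were found among 22919 listed genes, and all 7 were among the 21192 genes with a test.

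Receptor tyrosine kinases for growth factors and neurotrophins activate Ras, which switches on the kinases Raf, MEK and ERK in turn. ERK then induces transcription of genes whose products damp the same route, and Sprouty and Spred proteins belong to that negative feedback. Both families carry a cysteine-rich Sprouty domain. Spred proteins add an EVH1 domain, through which Spred1 recruits the Ras GTPase-activating protein neurofibromin to the membrane. In neurons, synaptic activity and calcium entry also feed into ERK.

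Nascent RNA was measured by Bru-seq, in which newly made RNA takes up bromouridine and is captured with an antibody against it, so that reads reflect ongoing transcription and not the standing RNA pool. The cultures came from cortices and hippocampi of CD1 mouse embryos at embryonic day 18, pooled over embryos with a matched sex ratio, and the labels list neurons, astrocytes and oligodendrocyte precursor cells in them. On day 14 in vitro they received a lentivirus that carried either a control shRNA, shCtrl, or shRai1, an shRNA targeting the nuclear protein gene Rai1, and on day 17 they were treated for 4 h. Tetrodotoxin (TTX, 1 µM), a sodium channel blocker, silences action potentials, bicuculline (BIC, 20 µM), which blocks inhibitory GABA-A receptors, raises network activity, and vehicle was water. Bromouridine (2 mM) was present for the last 20 min. All 6 groups were infected with a virus. The 3 shRai1 groups and shCtrl with TTX had 3 libraries each, and shCtrl with vehicle (replicates 1 and 2) and shCtrl with BIC (replicates 2 and 3) had 2 each, 16 in all. Replicates are separate pools of embryos per the study's design text. A further 12 ChIP-seq samples were not analysed here.

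Values per library were not used here, because the files analysed hold summaries: 7 comparisons with a log2 change and its standard error (SE), and 1 FPKM per condition with a lower and an upper bound. FPKM scales reads to gene length and library size, so it can be compared between genes of different length. The depth of single libraries is unknown. The mean normalized count over all libraries guides the precision, and it was 8305 for Spred2, 3960 for Spred1, 1720 for Spry2, 1229 for Spry4, 336 for Spred3, 160 for Spry1 and 59.4 for Spry3. Spry3 therefore had the widest errors. The FPKM columns headed as the shRai1 arm did not follow the shRai1 comparisons, so levels are given for the shCtrl arm. A gene is called when the adjusted p of the authors' DESeq2 test is below 0.05.

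The genes lie apart on the genome and none overlaps another entry of the FPKM table. In the coordinates of that table, on mm9, the build in the submitters' processing notes, Spry1 is at chr3:37538872-37543521, Spry2 at chr14:106291164-106296036, Spry4 at chr18:38745919-38760922, Spred1 at chr2:116946807-117008013, Spred2 at chr11:19824445-19922600 and Spred3 at chr7:29943848-29953666. Spry3 is listed on the unplaced sequence X_random, from 101352 to 106392. Spry1, Spry2 and Spry3 are compact, at 4650, 4873 and 5041 bp, against 61207 bp for Spred1 and 98156 bp for Spred2. Spry4 spans 15004 bp and Spred3 9819 bp.

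In vehicle, Spry2 had the highest level of the family and Spry3 the lowest. The pooled FPKM of the authors was 103 for Spry2 (bounds 79.6 to 126). This was above 98.6% of the tested genes whose name had a single FPKM entry. Spred2 followed at 30.3 (23.1 to 37.6), then Spred1 at 30.0 (21.9 to 38.1) and Spry4 at 24.0 (18.5 to 29.6). Spred3 stood at 15.2 (11.4 to 19.0), Spry1 at 11.5 (8.01 to 14.9) and Spry3 at 3.16 FPKM (1.98 to 4.34). Neighbours in this order had overlapping bounds, except that Spry2 lay clear above Spred2 and Spry1 lay clear above Spry3. In these bulk cultures fewer cells of a type and less RNA per cell cannot be told apart.

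**Figure D1:**
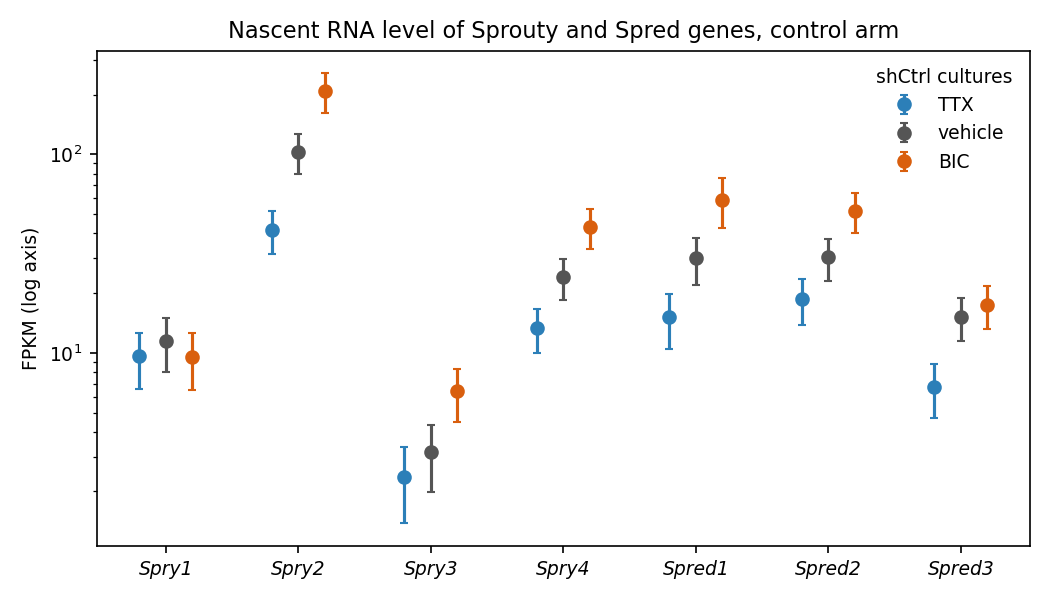
Pooled FPKM (log axis) of the 7 genes in shCtrl cultures with TTX, vehicle or BIC; points are the authors' pooled values and bars run between the bounds in their table, with no value per library. Spry2 runs from 41.5 in TTX through 103 in vehicle to 209 in BIC, while the 3 values of Spry1 overlap.

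Promoter sequences are shown for 3 genes, to set letters beside the values. Spry2 had the largest ratio of BIC to TTX in shCtrl FPKM, and BIC did not change Spry1 by the test. Spred2 was the one gene of the 5 searched with a match to a motif of an activity-regulated factor. The sequences are the 250 bases before the start of transcription in RefSeq, build GRCm38.p6. They are written 5′ to 3′ on the gene's strand, with motif matches in capitals. Spry1 is read from chr3:37639697-37639946 on the plus strand, Spry2 from chr14:105896820-105897069 on the minus strand and Spred2 from chr11:19924192-19924441 on the plus strand.
Spry1: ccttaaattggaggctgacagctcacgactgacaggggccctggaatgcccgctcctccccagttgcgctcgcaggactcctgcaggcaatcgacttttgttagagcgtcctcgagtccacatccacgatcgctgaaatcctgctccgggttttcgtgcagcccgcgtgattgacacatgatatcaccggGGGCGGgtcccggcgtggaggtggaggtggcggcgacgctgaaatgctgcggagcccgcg
Spry2: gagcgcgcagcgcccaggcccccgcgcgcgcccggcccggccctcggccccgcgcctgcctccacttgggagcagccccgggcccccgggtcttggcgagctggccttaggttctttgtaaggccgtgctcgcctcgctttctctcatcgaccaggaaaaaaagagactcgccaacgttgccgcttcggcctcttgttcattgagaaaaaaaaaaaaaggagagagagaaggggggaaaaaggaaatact
Spred2: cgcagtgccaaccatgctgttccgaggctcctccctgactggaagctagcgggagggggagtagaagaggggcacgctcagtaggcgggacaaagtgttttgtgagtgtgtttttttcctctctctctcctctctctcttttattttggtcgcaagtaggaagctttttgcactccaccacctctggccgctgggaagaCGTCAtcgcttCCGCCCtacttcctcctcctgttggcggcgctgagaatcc
The capitals mark a GC box in Spry1, 60 to 55 bases before the start. In Spred2 they mark the CRE half-site on the minus strand, 51 to 47 bases before the start, and a GC box on the minus strand, 40 to 35 bases before it. Spry2 held no match.

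The motifs were searched on both strands in 5 genes, Spry1, Spry2, Spred1, Spred2 and Spred3. Spry3 and Spry4 were not searched, so nothing is said of their promoters. The CRE half-site TGACG, part of the site of the factor CREB, occurred in 1 of the 5, Spred2, and in 17.8% of all 32851 promoter windows of this length. The full CRE TGACGTCA, which contains the half-site, was in none of the 5 and in 1.55% of windows. The AP-1 site TGANTCA (6.75% of windows), the CArG box of serum response factor (1.47%), the Egr site GCGNGGGCG (4.7%) and the Ets site CCGGAAG (6.91%) had no match in the 5 either. The GC box GGGCGG, the site of Sp factors, was in 4 of the 5 and in 32.7% of all windows, and it can overlap an Egr site. The GC content was 62.4% for Spry1 and for Spry2, 70.8% for Spred1, 56% for Spred2 and 55.6% for Spred3, with a median of 52.4% over all windows. A match is a string of letters and no measured site.

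Silencing with TTX lowered the transcription of most of the family. Called lower in the authors' deposited tables were 5 of 7 members in shCtrl, where 10.9% of all tested genes were called lower, and 6 of 7 in shRai1, where 12.3% were. The changes of all 7 were below 0 in both arms. The median log2 change of the 7 was -1.08 in shCtrl and -1.15 in shRai1, beside medians of 0.00 in both arms over all tested genes. Of the genes with a mean count of at least 50, which all 7 passed, 18.2% were called lower in shCtrl and 20.7% in shRai1.

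Spry2, whose protein binds the ubiquitin ligase Cbl after tyrosine phosphorylation, went from 103 FPKM in vehicle to 41.5 in TTX (bounds 31.5 to 51.6). The bounds of vehicle and TTX were apart. The authors' deposited tables give it a log2 change of -1.37 in shCtrl (SE 0.10, adjusted p 1.69e-39) and of -1.09 in shRai1 (SE 0.089, adjusted p 3.27e-32).

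Spry4, which restrains Raf activation, went from 24.0 to 13.3 FPKM (9.97 to 16.7), again with bounds apart. Its deposited log2 change in the authors' deposited tables was -1.08 in shCtrl (SE 0.11, adjusted p 2.26e-20) and -1.15 in shRai1 (SE 0.098, adjusted p 8.35e-30).

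Among the Spred genes, Spred1 went from 30.0 to 15.1 FPKM (10.4 to 19.7). By the authors' deposited tables its log2 change was -1.39 in shCtrl (SE 0.10, adjusted p 4.45e-41) and -1.36 in shRai1 (SE 0.089, adjusted p 5.62e-50), nearly the same size in both arms. Spred2, which like Spred1 binds neurofibromin, went from 30.3 to 18.6 FPKM (13.9 to 23.4), and here the bounds overlapped slightly. The authors' deposited tables nevertheless called it lower, by -0.97 in shCtrl (SE 0.067, adjusted p 1.43e-44) and -1.25 in shRai1 (SE 0.059, adjusted p 1.15e-96). Spred3, the Spred protein that lacks a working Kit-binding domain, went from 15.2 to 6.73 FPKM (4.71 to 8.74), with bounds apart. The authors' deposited tables list -1.25 in shCtrl (SE 0.13, adjusted p 1.02e-18) and -1.51 in shRai1 (SE 0.12, adjusted p 1.83e-34) for it.

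Spry1 and Spry3 stood apart from the other 5. Spry1 had 11.5 FPKM in vehicle and 9.59 in TTX (6.58 to 12.6), within overlapping bounds. In shCtrl the authors' deposited table gave it -0.38 (SE 0.17, adjusted p 0.0721), which did not pass, and in shRai1 -0.65 (SE 0.15, adjusted p 9.75e-05), which did. The difference of these responses was -0.26 (SE 0.22, adjusted p 0.953 by the Wald test). Averaged over both arms, Spry1 fell by 0.51 on the log2 scale (SE 0.11, adjusted p 2.93e-05). Spry3 had 3.16 FPKM in vehicle and 2.37 in TTX (1.38 to 3.35). Its changes in the authors' deposited tables, -0.35 in shCtrl (SE 0.25, adjusted p 0.338) and -0.21 in shRai1 (SE 0.22, adjusted p 0.534), did not pass, and the interval in shCtrl ran from -0.85 to 0.14.

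Placed among the 12333 genes with a mean count of at least 50, the 5 members called in shCtrl lay far into the lower tail of the authors' deposited table. Counted from the lowest log2 change, Spred1 was at place 126, Spry2 at 133, Spred3 at 169, Spry4 at 233 and Spred2 at 295. Spry1 was at place 1675 and Spry3 at 1869. In the authors' deposited table for shRai1, Spred3 was at place 74, Spred1 at 109, Spred2 at 137, Spry4 at 164 and Spry2 at 192. Spry1 was at place 621 there and Spry3 at 3015.

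Raising activity with BIC moved most of the family the other way. Called higher in the authors' deposited tables were 6 of 7 members in shCtrl, where 13.7% of tested genes were called higher, and 6 of 7 in shRai1, where 17.6% were. Of the genes with a mean count of at least 50, 21.5% were called higher in shCtrl and 26.9% in shRai1. The median log2 change of the 7 was 0.83 in shCtrl and 0.76 in shRai1, against 0.00 over all tested genes in each arm. In each arm TTX and BIC were compared with the same vehicle libraries, so the responses share that error. The member that was not called was Spry1 in both arms. Places from the highest log2 change were taken among the 12333 genes, in the authors' deposited table for shCtrl. Spry3 was at place 490, Spry2 at 588, Spred2 at 697 and Spred1 at 771. Spry4 was at place 992, Spred3 at 1987 and Spry1 at 7020.

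Spry2 went from 103 FPKM in vehicle to 209 in BIC (162 to 256), about 2.03 times the vehicle level. The log2 change in the authors' deposited tables was 0.95 in shCtrl (SE 0.11, adjusted p 6.46e-17) and 1.03 in shRai1 (SE 0.085, adjusted p 4.80e-32). Spry3, the gene with the lowest level, went from 3.16 to 6.42 FPKM (4.50 to 8.33), also 2.03 times vehicle and with bounds apart. The authors' deposited tables give Spry3 1.04 in shCtrl (SE 0.25, adjusted p 0.000247) and 0.86 in shRai1 (SE 0.21, adjusted p 0.000202). Spry3 was thus called under BIC but not under TTX, and the interval of its TTX change reached -0.85. Spry4 went from 24.0 to 43.2 FPKM (33.5 to 53.0). Its changes in the authors' deposited tables were 0.73 in shCtrl (SE 0.12, adjusted p 1.59e-08) and 0.66 in shRai1 (SE 0.094, adjusted p 3.20e-11).

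Spred1 went from 30.0 to 59.2 FPKM (42.7 to 75.7) and Spred2 from 30.3 to 51.8 (40.0 to 63.6), both with bounds apart from vehicle. For Spred1 the authors' deposited tables list 0.83 in shCtrl (SE 0.11, adjusted p 1.38e-12) and 0.81 in shRai1 (SE 0.087, adjusted p 2.28e-19). For Spred2 the authors' deposited tables list 0.87 in shCtrl (SE 0.074, adjusted p 7.27e-30) and 0.76 in shRai1 (SE 0.058, adjusted p 1.79e-37). Spred3 had the smallest rise of the 6. Its pooled FPKM was 15.2 in vehicle and 17.4 in BIC (13.1 to 21.6), with overlapping bounds and a log2 ratio of 0.19. The authors' deposited tables give it 0.44 in shCtrl (SE 0.14, adjusted p 0.00536) and 0.34 in shRai1 (SE 0.11, adjusted p 0.00468), so the FPKM and the comparison differ in size here. Spry1 had 9.52 FPKM in BIC (6.51 to 12.5). The authors' deposited tables give it -0.11 in shCtrl (SE 0.18, adjusted p 0.689) and -0.13 in shRai1 (SE 0.14, adjusted p 0.518), with an interval in shCtrl from -0.47 to 0.24.

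**Figure D2:**
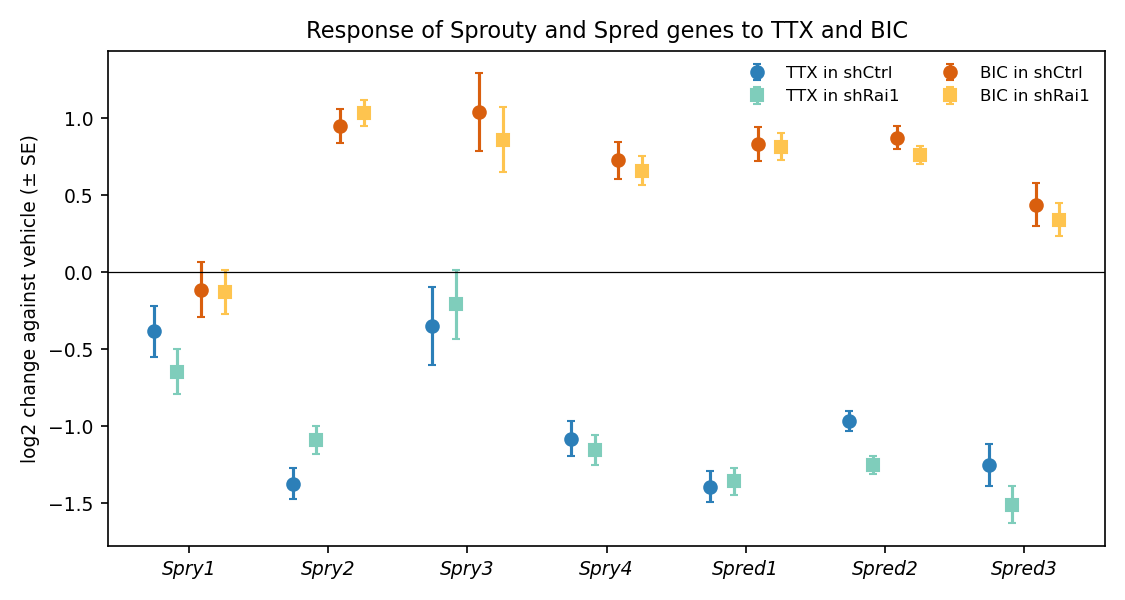
Log2 change against vehicle (± SE, as in the authors' deposited tables) of each gene under TTX (blue) and BIC (orange), in shCtrl (dark) and shRai1 (light) cultures. Every TTX point lies below 0, and the BIC points lie above 0 for every gene but Spry1.

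The contrast of BIC with TTX leaves the vehicle libraries out. In shCtrl the pooled FPKM in BIC was 5.03 times that in TTX for Spry2, 3.93 times for Spred1, 3.24 times for Spry4, 2.78 times for Spred2, 2.71 times for Spry3 and 2.58 times for Spred3. For Spry1 the FPKM ratio was 0.992. The bounds in TTX and BIC were apart for these 6 genes and overlapped for Spry1. On the log2 scale of the authors' deposited tables the BIC change less the TTX change was 2.32 in shCtrl and 2.12 in shRai1 for Spry2, and 2.22 and 2.17 for Spred1. For Spry4 it was 1.81 in both arms, for Spred2 1.84 and 2.01, for Spred3 1.69 and 1.85, for Spry3 1.39 and 1.07, and for Spry1 0.27 and 0.52. No SE was computed for these differences.

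Responses averaged over both arms use the libraries of both and have smaller errors. Under TTX 6 of 7 members were called lower, beside 14.9% of tested genes, and under BIC 6 of 7 were called higher, beside 19.3%. Of the genes with a mean count of at least 50, 24.6% were called lower under TTX and 28.6% higher under BIC. The averaged log2 change under TTX was -1.38 for Spred3 (SE 0.090) and for Spred1 (SE 0.067), -1.23 for Spry2 (SE 0.067), -1.12 for Spry4 (SE 0.074) and -1.11 for Spred2 (SE 0.045). Spry3 remained uncalled under TTX at -0.28 (SE 0.17, adjusted p 0.248 by the Wald test), with an interval from -0.61 to 0.05. Under BIC the averages were 0.99 for Spry2 (SE 0.069), 0.95 for Spry3 (SE 0.17), 0.82 for Spred1 (SE 0.071) and for Spred2 (SE 0.047), 0.69 for Spry4 (SE 0.076) and 0.39 for Spred3 (SE 0.087). Spry1 was uncalled under BIC at -0.12 (SE 0.12, adjusted p 0.482 by the Wald test).

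**Figure D3:**
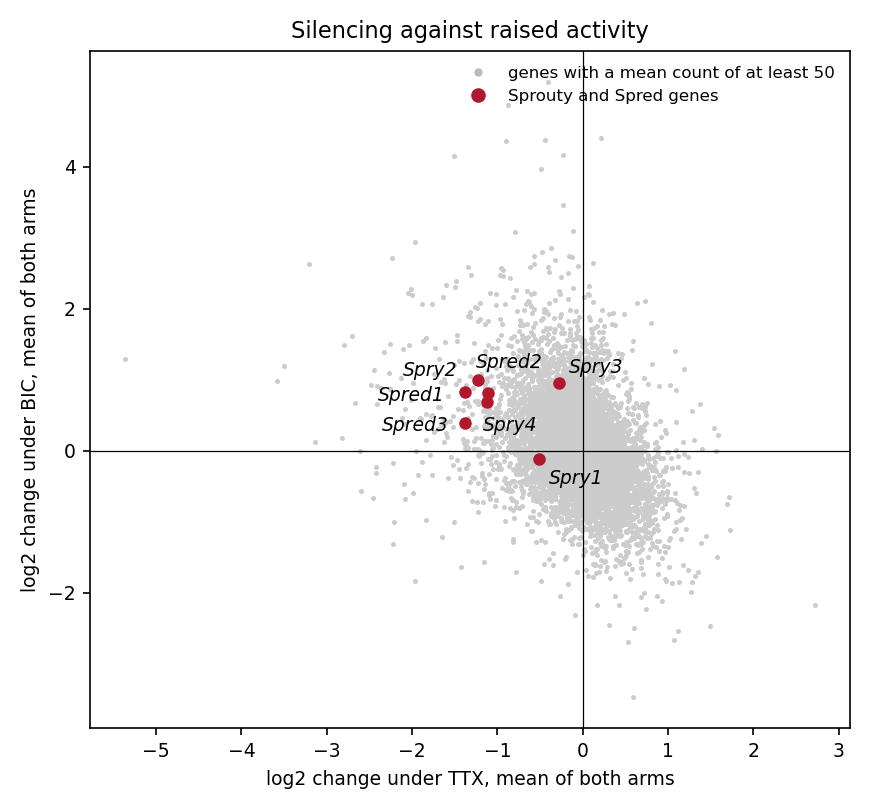
Log2 change under TTX (x axis) and under BIC (y axis), each the mean of both arms, for the 12333 genes with a mean count of at least 50 (grey) and the 7 Sprouty and Spred genes (red). Spry2, Spry4, Spred1, Spred2 and Spred3 lie together at the upper left, Spry3 lies near the BIC axis at -0.28 and Spry1 lies below 0 on both axes; both axes share the vehicle libraries.

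Genes with the most similar response were found by the Euclidean distance of their log2 changes over the 4 responses, among the other 12332 genes with a mean count of at least 50. This is a description of 4 values per gene, in which TTX and BIC share vehicle libraries. The gene nearest to Spry4 was Stk40, at a distance of 0.050, followed by Kcnf1, a potassium channel subunit, at 0.18 and Rhobtb1 at 0.19. Spry4 itself was the third nearest gene to Spred2, at 0.23, after Slc2a13, an inositol transporter, at 0.21 and Stk40, also at 0.21. Spry2 was nearest to Naf1, a factor of small nucleolar RNA-protein assembly, at 0.19, Ptchd4 at 0.22 and Mafk, a small Maf transcription factor, at 0.26. The genes nearest to Spred1 were Stc2, which encodes the secreted protein stanniocalcin, at 0.20, Mlip at 0.22 and Pex5, the import receptor of peroxisomes, at 0.26. Spry2 and Spred1 were each other's nearest member, at 0.37 and place 12.

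The remaining members had neighbours outside the family. Spred3 was closest to Gpr133, an adhesion receptor, at 0.24, Cemip at 0.25 and Hivep1 at 0.29, and its nearest member, Spry4, was at place 39. Spry1 was closest to Lsm12 at 0.075, Coro1c, a coronin that binds actin, at 0.089 and Smyd2, a lysine methyltransferase, at 0.12. Spry3 was closest to Cftr, a chloride channel, at 0.12, Ier5, an immediate-early gene, at 0.12 and Zswim4 at 0.12. The nearest member was at place 10105 for Spry1 and at place 3682 for Spry3. Most of the 12332 genes were thus nearer to Spry1 in response than any other member was.

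The knockdown was examined next. The targeted gene gave no check of the arms: the authors' deposited tables list Rai1 at 0.16 (adjusted p 0.357) in vehicle, at -0.12 (adjusted p 1.00) in TTX and at 0.03 (adjusted p 1.00) in BIC, for libraries labelled shRai1 against shCtrl. An shRNA acts on mature RNA, so nascent RNA does not measure the depth of a knockdown. Directions between arms rest on the labels.

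No member was called between shRai1 and shCtrl in vehicle, TTX or BIC in the authors' deposited tables from DESeq2, where 0.607%, 0.0283% and 0.00944% of tested genes were called in either direction. The vehicle share is over 20107 tested genes, those that could be named in that comparison. No share over all genes was computed at an unadjusted p under 0.05. At that threshold the number of members was 1 in vehicle, 1 in TTX and 0 in BIC. Both were Spred2, at 0.13 in vehicle (SE 0.066, adjusted p 0.437) and -0.15 in TTX (SE 0.060, adjusted p 1.00), per the authors' deposited tables, so the sign differed. Over the 7 genes the log2 differences in the authors' deposited tables ran from -0.13 to 0.20 in vehicle, from -0.15 to 0.24 in TTX and from -0.11 to 0.11 in BIC. Their 95% intervals reached from -0.38 to 0.58 in vehicle, from -0.43 to 0.70 in TTX and from -0.51 to 0.43 in BIC, with the widest ones for Spry3.

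Averaged over the 3 treatments, 0 of 7 members were called by the Wald test, beside 0.00497% of the 20107 named genes. The number with an unadjusted p under 0.05 was also 0, with no share over all genes computed at that threshold. The log2 difference was -0.08 for Spred1 (interval -0.19 to 0.03), 0.00 for Spry2 (-0.11 to 0.10), 0.00 for Spred2 (-0.07 to 0.07), 0.04 for Spry4 (-0.07 to 0.16), 0.04 for Spry1 (-0.14 to 0.22), 0.08 for Spred3 (-0.06 to 0.22) and 0.09 for Spry3 (-0.18 to 0.35).

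The responses were then compared between arms. For TTX no member passed the interaction test at an adjusted p under 0.05, beside 0.755% of tested genes. Before adjustment 2 members had a p under 0.05 by that test. No share over all genes was computed at the unadjusted threshold. The TTX response of Spred2 in shRai1 differed from that in shCtrl by -0.29 (SE 0.089, unadjusted p 0.00141, adjusted p 0.112 by the Wald test). For Spry2 this difference was 0.28 (SE 0.13, unadjusted p 0.0359, adjusted p 0.560 by the Wald test). For BIC no member passed at an adjusted p under 0.05, beside 0.0189% of genes. The number with an unadjusted p under 0.05 was 0, again with no share computed, and the differences ran from -0.18 to 0.08.

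**Figure D4:**
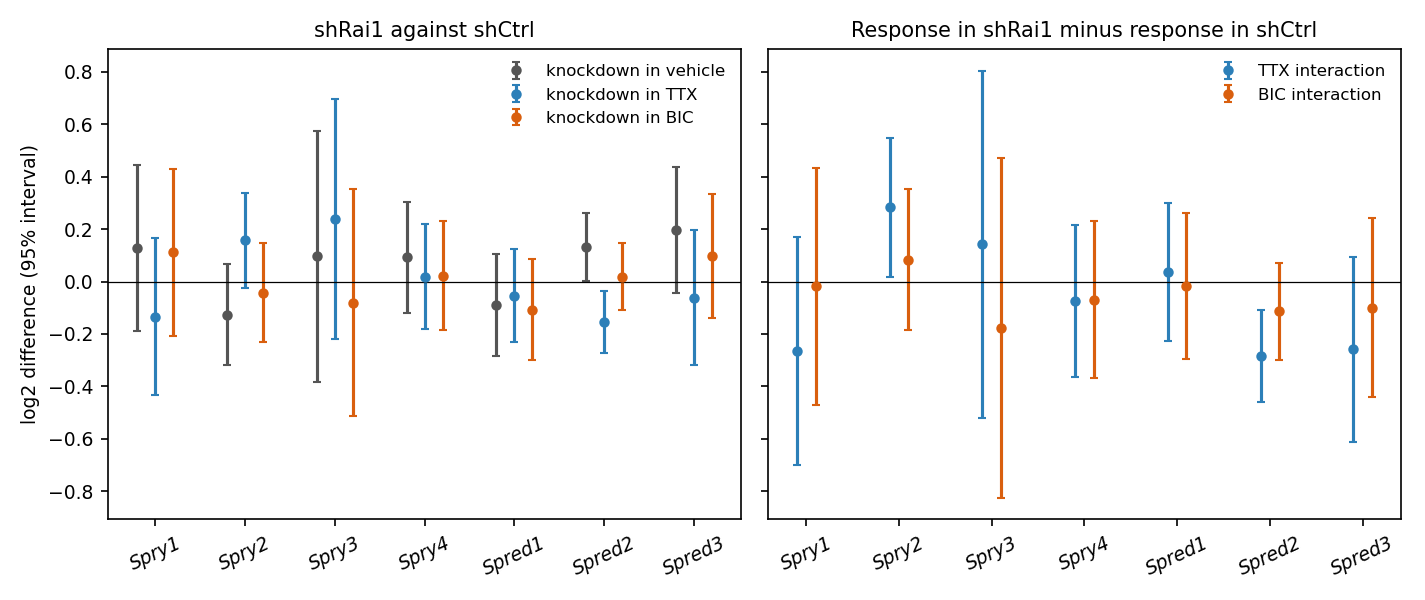
Log2 difference with its 95% interval for shRai1 against shCtrl in each treatment (left, grey vehicle, blue TTX, orange BIC) and for the difference of the responses, shRai1 less shCtrl (right). On the left the intervals cover 0 except those of Spred2 in vehicle and TTX, and on the right except those of Spred2 and Spry2 for TTX; none of these passed adjustment.

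The pathway around these inhibitors was described with 78 further genes in 7 lists, from ligands to feedback genes. Of the 78, the authors' deposited tables called 33 lower and 6 higher under TTX in shCtrl and 33 lower and 12 higher in shRai1, with median log2 changes of -0.17 and -0.13. Under BIC the authors' deposited tables called 14 lower and 32 higher in shCtrl and 18 lower and 38 higher in shRai1, with medians of 0.10 and 0.23. Over all tested genes, 10.9% were called lower and 8.59% higher under TTX in shCtrl, and 12.3% lower and 10% higher in shRai1. Under BIC 13.4% were called lower and 13.7% higher in shCtrl, and 17.6% in each direction in shRai1.

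The ERK-induced and other feedback genes had the lowest median of the lists under TTX in shCtrl. Of these 16 genes 11 were called lower and 0 higher in shCtrl, beside 10.9% and 8.59% of all tested genes. In shRai1 11 were called lower and 2 higher, beside 12.3% and 10%. The medians were -0.67 in shCtrl and -0.84 in shRai1. Dusp4, a phosphatase that inactivates ERK, had -2.34 in shCtrl (SE 0.13, adjusted p 5.20e-71) and 1.02 under BIC (SE 0.14, adjusted p 9.12e-13), per the authors' deposited tables. Epha2, an ephrin receptor, had -1.37 under TTX (SE 0.22) and 2.50 under BIC (SE 0.19), per the authors' deposited tables for shCtrl. Under BIC 8 of the 16 were called higher and 3 lower in shCtrl, beside 13.7% and 13.4% of all tested genes. In shRai1 12 were called higher and 3 lower, beside 17.6% in each direction. The 3 lower ones in shCtrl were Dusp7, named after its values were seen, Etv4 and Il17rd. Etv4, an Ets factor, was at -1.01 (SE 0.19, adjusted p 6.67e-07) and Il17rd, an inhibitor of FGF signalling also known as Sef, at -0.71 (SE 0.15, adjusted p 1.37e-05), per the authors' deposited table. Il17rd rose under TTX in shRai1 by 0.88 (SE 0.11, adjusted p 4.54e-13), per the authors' deposited table. In vehicle it was lower in shRai1 than in shCtrl, with a log2 difference of -0.47 (SE 0.13, adjusted p 0.0458), per the authors' deposited table. In shCtrl its TTX change of 0.26 (SE 0.13, adjusted p 0.116), per the authors' deposited table, did not pass. Of the other inhibitors of ERK in the list, the authors' deposited tables give Dusp6 -1.89 under TTX and 0.09 under BIC in shCtrl (adjusted p 0.667), and Dusp5 -1.82 and 0.13 (adjusted p 0.514). In shRai1 both were called higher under BIC, Dusp6 at 0.50 (adjusted p 3.24e-05) and Dusp5 at 0.58 (adjusted p 9.06e-07), per the authors' deposited table. Dusp5 and Dusp6 were named after their values were seen.

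Of 15 ligands, 5 were called lower and 2 higher under TTX in shCtrl, and 2 lower and 7 higher under BIC. Over all tested genes the shares were 10.9% lower and 8.59% higher under TTX, and 13.4% lower and 13.7% higher under BIC. Bdnf, the neurotrophin that activates TrkB, had -2.12 under TTX (SE 0.14, adjusted p 2.68e-50) and 1.41 under BIC (SE 0.15, adjusted p 7.82e-20), per the authors' deposited tables for shCtrl. Ntf3, another neurotrophin, rose under TTX by 1.42 (SE 0.23) and Fgf18, a fibroblast growth factor, by 1.07 (SE 0.13), per the authors' deposited table. Under BIC Fgf18 had -1.12 (SE 0.16, adjusted p 4.58e-11), per the authors' deposited table. Areg, an EGF receptor ligand with a mean count of 37.0, had 3.77 under BIC (SE 0.37, adjusted p 5.48e-23) and Gdnf had 1.51 (SE 0.28, adjusted p 4.37e-07), per the authors' deposited table.

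Of 16 receptors, 8 were called lower and 1 higher under TTX in shCtrl, and 2 lower and 6 higher under BIC. Beside these stood 10.9% lower and 8.59% higher under TTX over all tested genes, and 13.4% lower and 13.7% higher under BIC. The receptor called higher under TTX was Igf1r, the receptor of insulin-like growth factor, at 0.54 (SE 0.078, adjusted p 1.04e-10), per the authors' deposited table. Pdgfra, the receptor that marks oligodendrocyte precursors, had -0.76 under TTX in shCtrl (SE 0.13) but 1.10 in shRai1 (SE 0.12), per the authors' deposited tables. It was also lower in shRai1 vehicle than in shCtrl vehicle, by -1.37 (SE 0.13, adjusted p 6.02e-21), per the authors' deposited table.

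Calls were mixed in the core of the pathway, where every listed gene had a mean count of at least 50. Of all genes with such a count, 18.2% were called lower and 13.8% higher under TTX in shCtrl. Under BIC in shCtrl the shares were 22.1% lower and 21.5% higher. Of 9 adaptors and exchange factors, 2 were called lower and 0 higher under TTX in shCtrl, and 1 lower and 3 higher under BIC. Of 6 genes for Ras and its GTPase-activating proteins 4 were called lower and 0 higher under TTX, and 0 lower and 3 higher under BIC. Of 9 genes of the kinase cascade only 1 was called lower and 3 higher under TTX, and 5 lower and 2 higher under BIC, so that this list had a negative median under BIC, -0.23. The scaffolds Ksr2 and Ksr1 were among those falls, at -0.97 (SE 0.081, adjusted p 4.23e-31) and -0.85 (SE 0.089, adjusted p 7.17e-20), per the authors' deposited table for shCtrl. So was Mapk3, the gene of ERK1, named after its values were seen, at -0.95 in shCtrl (adjusted p 1.85e-07) and -0.29 in shRai1 (adjusted p 0.0746), per the authors' deposited tables. Of 7 genes whose products bind Sprouty or Spred proteins, 2 were called lower and 0 higher under TTX, and 1 lower and 3 higher under BIC. Cav1, which encodes caveolin, was at -2.11 under TTX (SE 0.23, adjusted p 2.99e-18), per the authors' deposited table, and its BIC change of 0.01 did not pass.

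**Figure D5:**
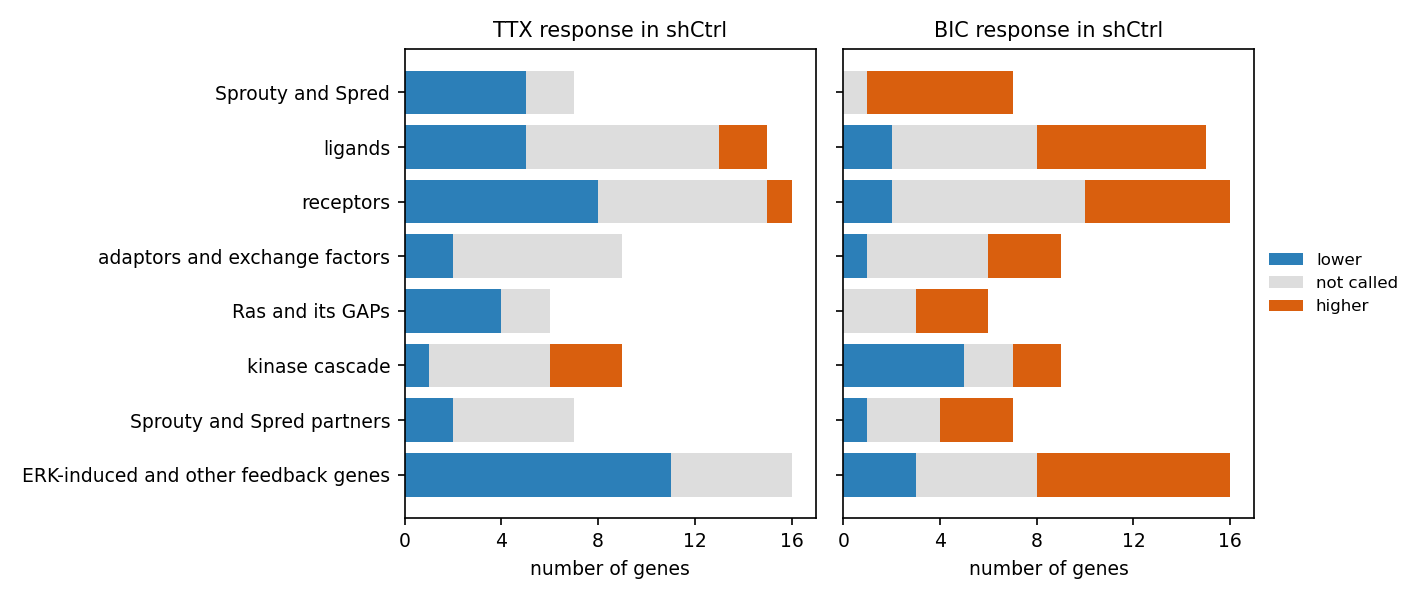
Number of genes called lower (blue), called higher (orange) and not called (grey) for shCtrl in the authors' deposited tables, with the threshold of 0.05 on the adjusted p, under TTX (left) and BIC (right), for the 7 Sprouty and Spred genes and each pathway list. The family has 5 lower under TTX and 6 higher under BIC; the kinase cascade has 1 lower under TTX and 5 lower under BIC.

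Between the arms, 4 of the 78 pathway genes were called lower in vehicle, 1 higher in TTX and 1 lower in BIC in the authors' deposited tables. The matching shares were 0.517% over the 20107 genes named in vehicle, and 0.0142% and 0.00472% over all tested genes. The pathway genes called in vehicle were Pdgfra and the feedback genes Il17rd, Errfi1 and Flrt3, the last pair named after their values were seen, and in TTX and BIC the gene was Pdgfra.

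Cell type markers were set beside these results. In shCtrl the summed FPKM in vehicle, TTX and BIC was 594, 524 and 590 for 8 neuron markers and 195, 159 and 148 for 6 astrocyte markers. The 5 markers of oligodendrocyte precursors summed to 129, 92.0 and 108, the 5 microglia markers to 19.3, 20.1 and 28.1, and the 4 endothelial markers to 1.01, 1.21 and 1.51. Among the microglia markers the level in vehicle, TTX and BIC was 14.7, 14.9 and 21.8 FPKM for Cx3cr1, while Tmem119 was at most 0.076. Of the endothelial markers Cldn5 was at 0.118 FPKM in vehicle and listed at 0 in TTX and BIC. The authors' deposited tables called 4 of 5 precursor markers lower under TTX in shCtrl (median -0.70), 4 of 5 higher under TTX in shRai1 (median 0.47) and 4 of 5 lower in shRai1 vehicle than in shCtrl vehicle (median -0.78). The shares called in these directions were 10.9% and 10% over all tested genes and, in vehicle, 0.517% over the 20107 named genes. Under TTX in shRai1, 6 of 7 Sprouty and Spred genes were called lower. The part of the precursor markers in the members' changes was not tested. Of the neuron markers 4 were called lower and 1 higher under TTX in shCtrl, and of the astrocyte markers 3 lower and 0 higher, beside 10.9% lower and 8.59% higher over all tested genes. Under BIC in shCtrl the authors' deposited table called 3 neuron markers lower and 4 higher, 1 astrocyte marker lower and 0 higher, 1 precursor marker lower and 0 higher, and 0 of 5 microglia markers lower and 2 higher (median 0.43), beside 13.4% lower and 13.7% higher over all tested genes. Of the 3 endothelial markers with a test, that table called 0 lower and 1 higher (median 0.30), beside the same shares. The part of the neuron, astrocyte, microglia and endothelial markers in the members' changes was not tested.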

How the data were processed

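Nascent RNA of 16 Bru-seq libraries in 6 groups was summarised by the authors, and only these summaries were analysed. The submitters' processing notes name TopHat2 2.1.0, Bowtie2 2.2.6, DESeq2 and the build mm9, without their roles. Each of the 7 deposited tables gives, per the file headers, a mean normalized count, which is a signal the authors averaged over the libraries, a log2 change with its standard error, the Wald statistic, which is a score the authors computed, and the p-value before and after adjustment; text in those columns marks missing values. The deposited FPKM table gives each condition 1 pooled FPKM and other values that bound it, per the file headers; what the bounds cover is not given in the sources used here. Its starts were read as 0-based, because 8136 of 22457 matched RefSeq lengths then agreed, against 515 otherwise.

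The table of the knockdown in vehicle has no gene names. They were taken here by a shared, unique mean count, which named 20107 genes and left 1085 unnamed, and the log2 changes of the tables then closed within 1e-09. Averages and interactions were computed here from deposited log2 changes that share no library. Their error was the root of the summed squared errors, with a two-sided Wald test and Benjamini-Hochberg adjustment over all tested genes. For the knockdown average these were the 20107 named genes. The errors treat the combined changes as independent and take no account of embryo pools that arms or treatments may share. Intervals are 95% normal intervals. Calls have an adjusted p under 0.05.

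The members and all lists were chosen with earlier results of these data known. Named were the 7 members, Rai1, the 3 largest called rises and falls of the pathway lists in each response, and the 3 genes nearest to each member; genes outside this rule are marked as named after their values were seen. Alternatives were other thresholds, other gene sets for the adjustment, centring on the median gene, and FPKM ratios. Python 3.11.15, numpy 2.4.6, pandas 2.3.3, scipy 1.17.1 and matplotlib 3.10.9 were used. Promoters are from RefSeq, for 5 of 7 members, with Spry3 and Spry4 left out.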

Additional observations from a re-analysis of the deposited data

Results flagged for a closer look

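In the authors' FPKM table the column headed as the knockdown with TTX held values above the bounds of the control TTX column for 6 of the 7 genes. Spry2 was listed there at 196 FPKM, against 41.5 in the control with TTX. Spry4 was at 44.0 against 13.3, Spred1 at 53.6 against 15.1, Spred2 at 52.4 against 18.6, Spred3 at 19.4 against 6.73 and Spry3 at 6.39 against 2.37. The bounds of Spry1, at 11.0 against 9.59, overlapped. The column headed as the knockdown with vehicle listed Spry2 at 49.3, and that headed as the knockdown with BIC at 102. These levels go against the authors' deposited tables, in which none of the 7 genes differed between the arms by the test. With these headings taken as given, the TTX to vehicle ratio in shRai1 had the sign of the deposited log2 change for 0 of 7 members and for 16.9% of 4696 called genes, while in shCtrl it had that sign for 7 of 7 members and for 91.4% of 4106 genes. For BIC the shares were 6 of 7 and 61.7% of 7352 genes in shRai1, and 7 of 7 and 90.5% of 5666 genes in shCtrl. The control columns held Spry2 at 209 with BIC, 41.5 with TTX and 103 with vehicle. For each of the 7 genes, bounds overlapped between knockdown TTX and control BIC. They also overlapped between knockdown vehicle and control TTX, and between knockdown BIC and control vehicle. Whether the headings were exchanged was not tested. The knockdown columns were not used as levels of a treatment.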

How the results depend on the processing

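All 55 alternatives for the counts of called members stayed within 1.5 times the main count. For the knockdown comparisons and the interactions the main count was 0 and stayed 0, and a stricter threshold could not have lowered it. Under TTX in shCtrl the count went from 5 to 6 at a threshold of 0.1. Of 413 alternatives for single members, 397 kept their direction and side of the threshold or, for FPKM ratios, which have no test, moved by less than 1 SE. Spry1 under TTX in shCtrl passed at a threshold of 0.1. Pooled FPKM ratios with a pseudocount of 0.1 or 1 moved 13 of 28 values by more than 1 SE and reversed 0. Centring on the median gene turned the knockdown averaged over treatments, which passed no test, to 0.0016 for Spry2 and to 0.0044 for Spred2. No paired analysis was possible because the files hold no value per library, and for the same reason no replicate could be left out. The precision is set by 2 or 3 libraries per group.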
